A study of Mus musculus with 2 samples.

Results

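The 9 genes described here are the CXC chemokine ligands Cxcl1, Cxcl2, Cxcl3, Cxcl9, Cxcl10, Cxcl12, Cxcl13, Cxcl14 and Cxcl16, taken by symbol from a count table of 31053 genes. CXC chemokines are small secreted proteins that bind G protein-coupled receptors on leukocytes and direct their migration. Those with a glutamate-leucine-arginine (ELR) motif, here Cxcl1, Cxcl2 and Cxcl3, attract neutrophils through Cxcr2, and their genes are induced by NF-kB in response to microbial products, IL-1 and TNF. Cxcl9 and Cxcl10 are induced by interferons and bind Cxcr3 on NK cells and activated T cells. Cxcl12 retains cells through Cxcr4, Cxcl13 draws B cells through Cxcr5, and Cxcl16 is made as a membrane protein whose receptor is Cxcr6.

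The cells came from the aortic arch and thoracic aorta of Apoe-/- mice, which lack apolipoprotein E in every cell and develop atherosclerosis. Every mouse had 4 weeks of western diet with weekly doses of either saline or 30 mg/kg nt-LNA, an agent the labels name only by this abbreviation. Live cells with CD45, a leukocyte surface protein, and without the T cell protein CD3 were sorted and sequenced with 1 library for each treatment (n = 1). The sources used here give neither the age and sex of the mice nor the number pooled in a library.

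The 2 libraries held 7613 cells in 20 clusters, 2742 in the saline library and 4871 in the nt-LNA library, and 2 cell barcodes occurred in both. Counts of unique molecular identifiers (UMIs, one per captured transcript) were deposited as sums over each cluster, with both libraries pooled, and totalled 212515 to 12985745 a cluster. Levels are therefore given by cluster as counts scaled to 1000000 UMIs of the cluster (CPM) with an exact Poisson 95% interval, which covers counting error only. With no replicate there is no test and no p-value, and neighbouring levels are called apart only where their intervals do not overlap. The libraries were labelled as macrophages, but 9 of the 20 clusters carry that name in the deposited table, and Cd3e, a subunit of CD3, exceeded 100 CPM in 9 clusters. Marker genes put names on 12 clusters: 7 was neutrophil-like, 8 mature dendritic cell-like, 15 nonclassical monocyte-like, 17 type 1 dendritic cell-like, 18 plasmacytoid dendritic cell-like, 19 serous cavity macrophage-like, 6 proliferating-like, 3 NK cell-like, 1 B cell-like, 4 plasma cell-like, and 11 and 16 ILC2-like. ILC2s are group 2 innate lymphoid cells. Clusters 11 and 16 are both deposited as T cells, and their T cell markers summed to 1265 and 1487 CPM, beside 3572 and 5774 CPM of ILC2 markers. The gene with the largest ratio in cluster 11 was Il17a, which is not on the ILC2 list, so ILC2-like describes markers and settles no identity. Cluster 0 was rich in C1qa, a macrophage complement gene, but its leading genes held 5 smooth muscle markers, and cluster 10 held 3 foamy macrophage and 3 classical monocyte markers, so both are called by number, as are 2, 5, 9, 12, 13 and 14.

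Promoter windows were available for 8 of the 9 ligands, as the 250 bases before the RefSeq transcription start (GRCm38.p6). The 3 ELR genes and Cxcl10 are shown because their windows carry the motifs of the pathways named above. Capitals mark matches, on either strand, to the NF-kB motif, to the interferon-stimulated response element (ISRE, searched as GAAANNGAAA) and to the AP-1 motif (TGANTCA).
Cxcl1, chr5:90890995-90891244, plus strand: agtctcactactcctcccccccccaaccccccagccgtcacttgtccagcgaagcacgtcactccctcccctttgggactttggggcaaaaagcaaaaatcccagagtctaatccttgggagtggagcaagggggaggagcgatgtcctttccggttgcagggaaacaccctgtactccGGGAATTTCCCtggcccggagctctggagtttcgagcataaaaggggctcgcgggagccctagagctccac
Cxcl2, chr5:90903649-90903898, plus strand: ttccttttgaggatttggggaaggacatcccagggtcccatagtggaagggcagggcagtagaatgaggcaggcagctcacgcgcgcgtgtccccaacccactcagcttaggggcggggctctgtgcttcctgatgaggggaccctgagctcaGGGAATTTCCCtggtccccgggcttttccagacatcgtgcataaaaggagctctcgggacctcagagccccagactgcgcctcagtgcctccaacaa
Cxcl3, chr5:90785851-90786100, plus strand: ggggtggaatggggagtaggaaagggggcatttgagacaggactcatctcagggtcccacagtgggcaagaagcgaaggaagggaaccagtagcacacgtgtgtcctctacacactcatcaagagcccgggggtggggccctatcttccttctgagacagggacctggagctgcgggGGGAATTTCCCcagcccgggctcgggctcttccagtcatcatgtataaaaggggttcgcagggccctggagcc
Cxcl10, chr5:92348890-92349139, minus strand: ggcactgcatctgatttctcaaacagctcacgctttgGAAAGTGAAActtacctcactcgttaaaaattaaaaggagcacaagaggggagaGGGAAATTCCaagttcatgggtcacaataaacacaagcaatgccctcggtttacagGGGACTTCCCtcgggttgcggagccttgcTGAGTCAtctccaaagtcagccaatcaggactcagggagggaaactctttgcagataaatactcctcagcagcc
Cxcl1, Cxcl2 and Cxcl3 each held 1 run of 11 bases, GGGAATTTCCC, that reads the same on both strands apart from its central base and gave 2 overlapping NF-kB matches. It began 71, 97 and 73 bases before the start. The Cxcl10 window held 2 separate NF-kB matches, beginning 159 and 103 bases before the start, 1 ISRE match and 1 AP-1 match. Of 32851 windows of the same length in RefSeq, 3.90% held an NF-kB match, 2.98% an ISRE match and 6.75% an AP-1 match. The windows of Cxcl9, Cxcl12 and Cxcl13 held no match to these 3 motifs or to the gamma-activated sequence (TTCNNNGAA, in 7.02% of windows), and that of Cxcl14 held 1 ISRE and 1 gamma-activated sequence. A match describes letters only and says nothing of binding in these cells.

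Together the 9 ligands gave 83207 UMIs, or 0.119% of all UMIs, and Cxcl2 made up 84.0% of them. Libraries of this kind count the 3' end of a transcript once, so these shares were not divided by gene length. Cxcl2 gave 69873 UMIs, Cxcl16 gave 5621, Cxcl10 gave 2506, Cxcl3 gave 1942 and Cxcl1 gave 1650. Cxcl9 followed with 689 UMIs, Cxcl13 with 621, Cxcl14 with 229 and Cxcl12 with 76. The level of each ligand was highest in a cluster deposited as Macrophages for 9 of 9 ligands, while 33.2% of the 12780 genes with at least 50 UMIs had their highest level in 1 of those 9 clusters. These clusters hold 37.6% of the cells and 61.8% of the UMIs. The ligands differed in place. Cxcl2 and Cxcl3 were highest in cluster 7, as were 3.33% of those genes, Cxcl9 and Cxcl16 in cluster 8 (2.05% of genes), and Cxcl10 in cluster 10 (2.72%). Cxcl1, Cxcl12 and Cxcl13 were highest in cluster 19 (3.52%) and Cxcl14 in cluster 0 (2.0%). The place of Cxcl12 rests on 3 UMIs and was not apart from cluster 0.

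**Figure D1:**
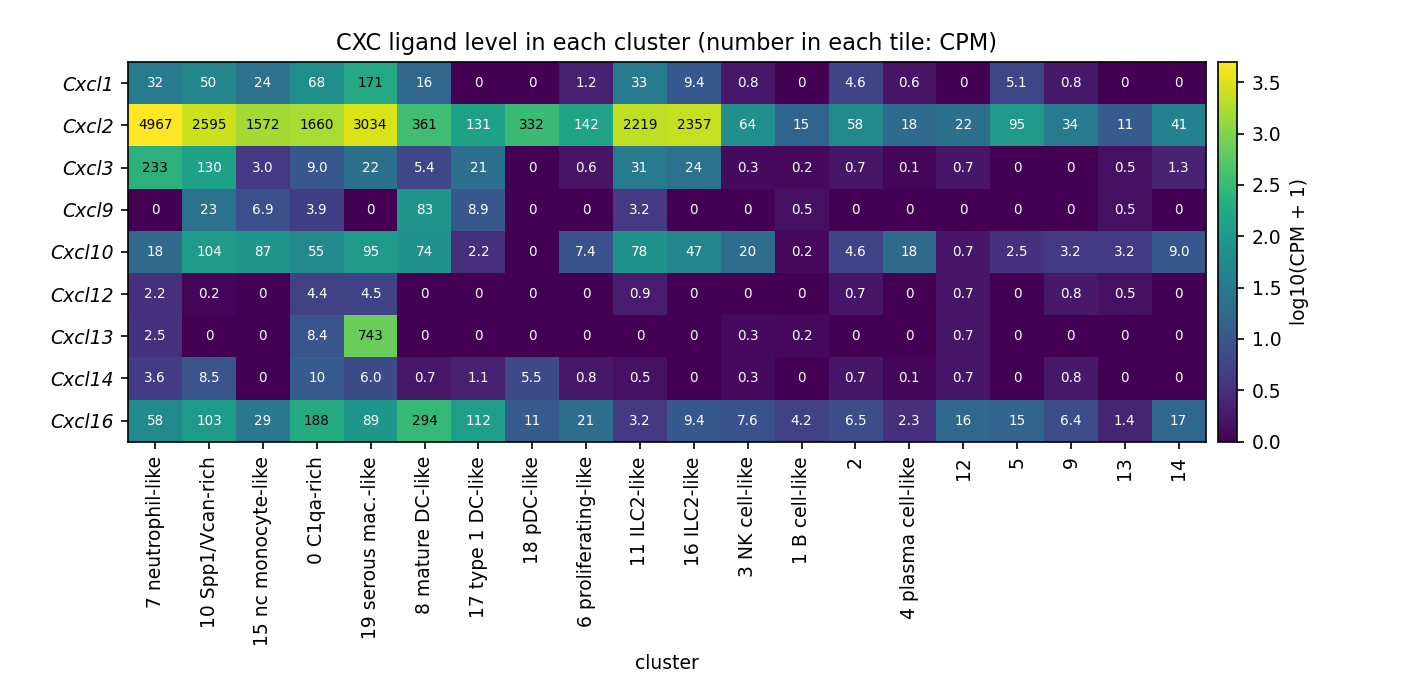
Level of the 9 CXC ligands (rows) in the 20 clusters (columns), with the CPM printed in each tile and the colour giving log10(CPM + 1). Cxcl2 was present in every cluster, while Cxcl13 reached 743 CPM in cluster 19 and at most 8.39 CPM elsewhere.

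The ratio of a ligand's highest cluster to the mean CPM of the other 19 clusters described how concentrated it was. It reached 10 for 4 of the 9 ligands (Cxcl1, Cxcl3, Cxcl9 and Cxcl13), against 10.5% of the genes with at least 50 UMIs. The median ratio was 8.28 over the ligands and 3.0 over all these genes. The 8.28 is the ratio of Cxcl12, which rests on 3 UMIs in cluster 19. In cluster 0, with 57 UMIs and a level not apart, the Cxcl12 ratio was 8.07. Cxcl13 had a ratio of 1171, Cxcl9 of 34.0, Cxcl3 of 17.7 and Cxcl1 of 13.3. For the rest it was 8.28 (Cxcl12), 7.95 (Cxcl16), 6.77 (Cxcl14), 6.39 (Cxcl2) and 3.77 (Cxcl10). Without cluster 19, which holds 27 cells, the Cxcl1 ratio was 6.87 and that of Cxcl13 was 41.2, with cluster 0 as the highest for both. Against the other clusters deposited as Macrophages alone, the ratios of Cxcl1 and Cxcl3 were 7.19 and 9.74.

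**Figure D2:**
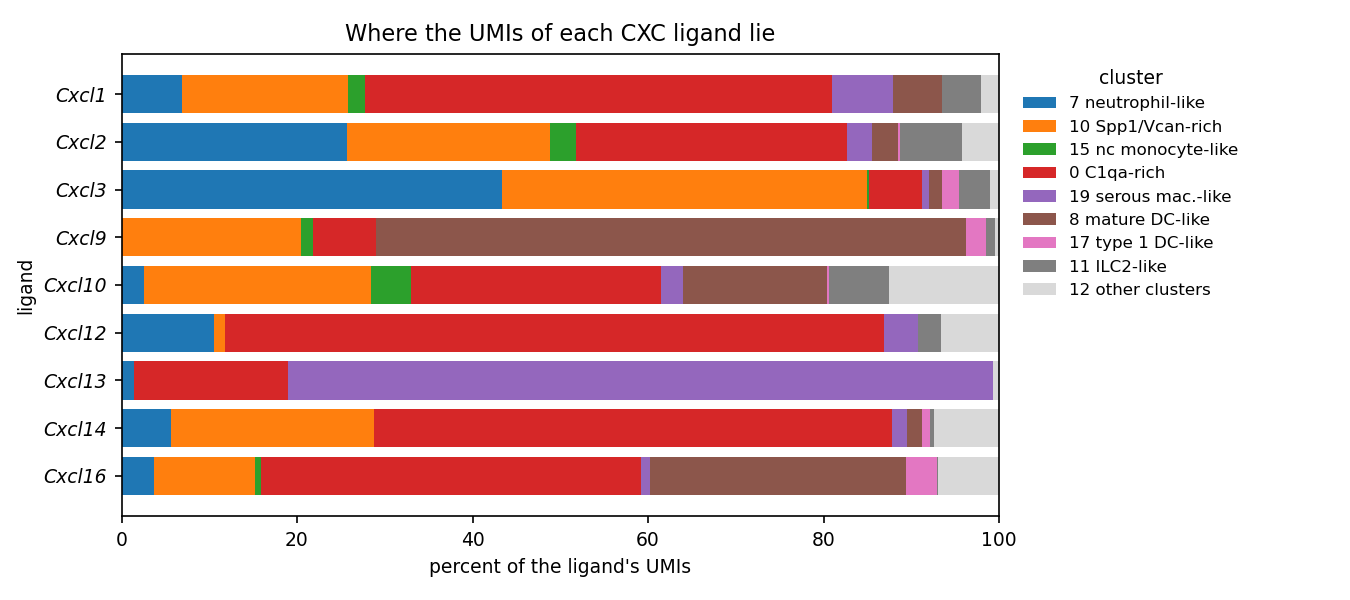
Share of each ligand's UMIs (horizontal axis, percent) that lay in each of 8 clusters and in the 12 others together. The large C1qa-rich cluster 0 held the largest share of Cxcl1 (53.3%), Cxcl12 (75.0%) and Cxcl14 (59.0%), while cluster 8 held 67.2% of Cxcl9 and cluster 19 held 80.4% of Cxcl13.

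Among the neutrophil attractants was Cxcl2, also known as MIP-2. Its interval overlapped that of Cxcl10 in cluster 4 and that of Cxcl16 in clusters 12, 14 and 17. By UMIs Cxcl2 was still the most abundant of the 9 in all 20 clusters. It stood at 4967 CPM (4895 to 5040) in the neutrophil-like cluster 7, 3034 (2903 to 3168) in cluster 19 and 2595 (2555 to 2636) in cluster 10, each apart from the others. Next came 2 lymphoid clusters, the ILC2-like cluster 16 with 2357 CPM (2156 to 2573) and cluster 11 with 2219 (2157 to 2282), whose intervals overlapped each other; that of cluster 16 also overlapped cluster 10. Clusters 0 and 15 followed with 1660 and 1572 CPM, and the mature dendritic cell-like cluster 8 with 361. The lowest level was 11 CPM in cluster 13. Clusters 0, 7 and 10 together held 79.7% of all Cxcl2 UMIs.

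The ILC2-like cluster 11 was low in neutrophil and macrophage marker genes, and cluster 16 less clearly so. Cluster 11 held 333 cells and 4894 Cxcl2 UMIs, beside 31.7 CPM of the neutrophil gene S100a8 and 112 CPM of Lyz2, the lysozyme gene of myeloid cells. In cluster 7 the same genes stood at 43768 and 5355 CPM. There were thus 69.9 Cxcl2 UMIs for each S100a8 UMI (55.2 to 89.8) in cluster 11, against 0.113 (0.112 to 0.115) in cluster 7 and 9.95 (9.52 to 10.4) in cluster 0. Cluster 16 had 184 CPM of S100a8, beside 167 CPM in cluster 0, and its 12.8 Cxcl2 UMIs per S100a8 UMI (9.27 to 18.3) were not apart from the value of cluster 0. For each Lyz2 UMI there were 19.7 of Cxcl2 in cluster 11 and 12.8 in cluster 16, against at most 0.927 in any other cluster. The summed level of 11 neutrophil markers was 79.4 CPM in cluster 11, with Ly6g and Mmp9 at 0, and 372 CPM in cluster 16, with Camp, Ltf, Cxcr2, Ly6g and Mmp8 at 0, against 428 CPM in cluster 0. The sums of 9 macrophage markers were 66.7 and 160 CPM, against 6456 CPM in cluster 0. Sums of monocyte markers were near or above those of cluster 0. The 7 classical ones summed to 850 CPM in cluster 11 and 1802 in cluster 16, with Vcan at 0 in both. They summed to 969 CPM in cluster 0 and 4603 in cluster 10, but also to 1043 in the NK cell-like cluster 3 and 1963 in the plasma cell-like cluster 4. The 7 nonclassical ones summed to 949 and 1266 CPM, against 534 in cluster 0 and 2798 in cluster 15. Their sum was 925 CPM in cluster 3 and 186 in cluster 4. Ace, Cd300e and Treml4 of this list were at 0 in cluster 16. These sums are thus not particular to monocytes. Cluster 16 had 1897 UMIs per cell and 8.42% mitochondrial UMIs, so its 501 Cxcl2 UMIs came from shallow cells. The part of free RNA, or of cells captured together, in the Cxcl2 of clusters 11 and 16 was not tested.

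At the other end, clusters 1, 4, 12 and 13 held between 11 and 21.9 CPM of Cxcl2, beside 23.9 to 49.5 CPM of S100a8 and 36.0 to 218 CPM of Lyz2. In these clusters Cxcl2 was 0.294 to 0.594 times S100a8. The part of free RNA in these low levels was not tested.

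Cxcl3, a close relative of Cxcl2, was concentrated in 2 clusters. It reached 233 CPM (217 to 249) in cluster 7 and 130 CPM (121 to 139) in cluster 10, which together held 85.0% of its UMIs, and the third level was 31.3 CPM in cluster 11. Cluster 0, with 1660 CPM of Cxcl2, had 9.01 CPM of Cxcl3, and Cxcl3 had no UMI in clusters 5, 9 and 18. Per 100 cells there were 226 UMIs in cluster 10 and 218 in cluster 7. No interval was computed per cell, so these are not called apart. Transcripts of Cxcl2 and Cxcl3 share stretches of 50 bases in GENCODE M21, but these lie at least 850 bases from the 3' end of the Cxcl3 transcripts that hold them. In 1 short Cxcl2 transcript of 397 bases they lie within the last 500, so a split of such reads between the genes cannot be told from the counts.

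Cxcl1, also called KC, the third ELR ligand here, had another order of clusters. It stood at 171 CPM (141 to 206) in the serous cavity macrophage-like cluster 19, 67.7 (63.3 to 72.3) in cluster 0 and 50.1 CPM in cluster 10, each apart from the next. The neutrophil-like cluster 7 had 31.5 CPM and cluster 11 had 33.1. No UMI was found in 6 clusters (1, 12, 13, 14, 17 and 18), and cluster 0 held 53.3% of the total against 18.5% of all UMIs. Cluster 19 consisted of 5 saline and 22 nt-LNA cells, and its neutrophil markers summed to 4094 CPM, against 105293 in cluster 7.

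**Figure D3:**
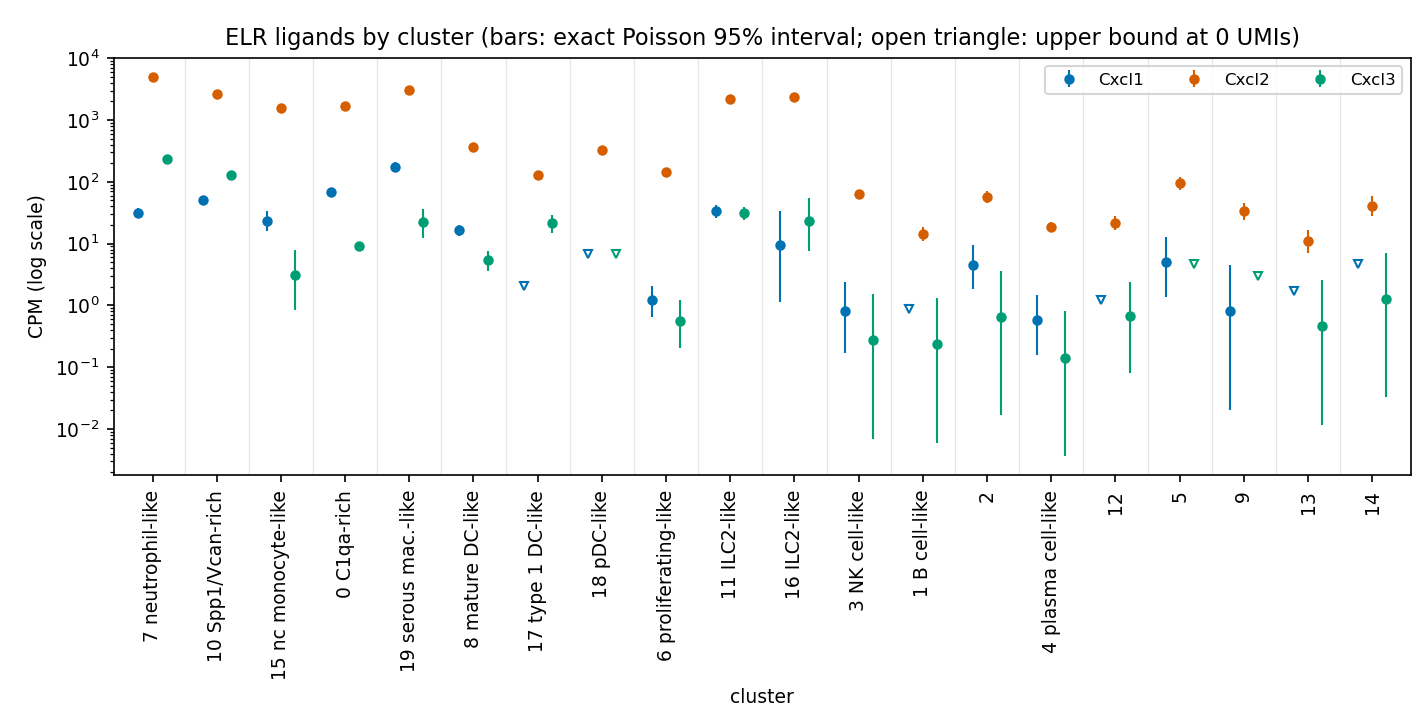
Level of Cxcl1, Cxcl2 and Cxcl3 (vertical axis, CPM on a log scale) in the 20 clusters, with exact Poisson 95% intervals and open triangles for the upper bound where no UMI was found. Cxcl2 lay above the other two in every cluster, and Cxcl3 exceeded Cxcl1 in clusters 7 and 10 but not in clusters 0 and 19.

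The mix of ELR ligands thus differed between clusters. There were 158 Cxcl2 UMIs per Cxcl1 UMI (131 to 191) in cluster 7, 51.8 in cluster 10, 24.5 (22.9 to 26.3) in cluster 0 and 17.7 (14.7 to 21.6) in cluster 19. Per Cxcl3 UMI there were 21.3 in cluster 7, 20 in cluster 10, 136 in cluster 19 and 184 in cluster 0. The type 1 dendritic cell-like cluster 17 had the lowest value, 6.16 Cxcl2 UMIs per Cxcl3 UMI, from 234 and 38 UMIs, and no Cxcl1. Cxcl3 exceeded Cxcl1 by 7.39 times in cluster 7 and 2.59 times in cluster 10, whereas it was 0.133 times Cxcl1 in cluster 0 and 0.13 times in cluster 19. Because both genes of a ratio come from the same cells, these values do not depend on the scaling to the cluster total.

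**Figure D4:**
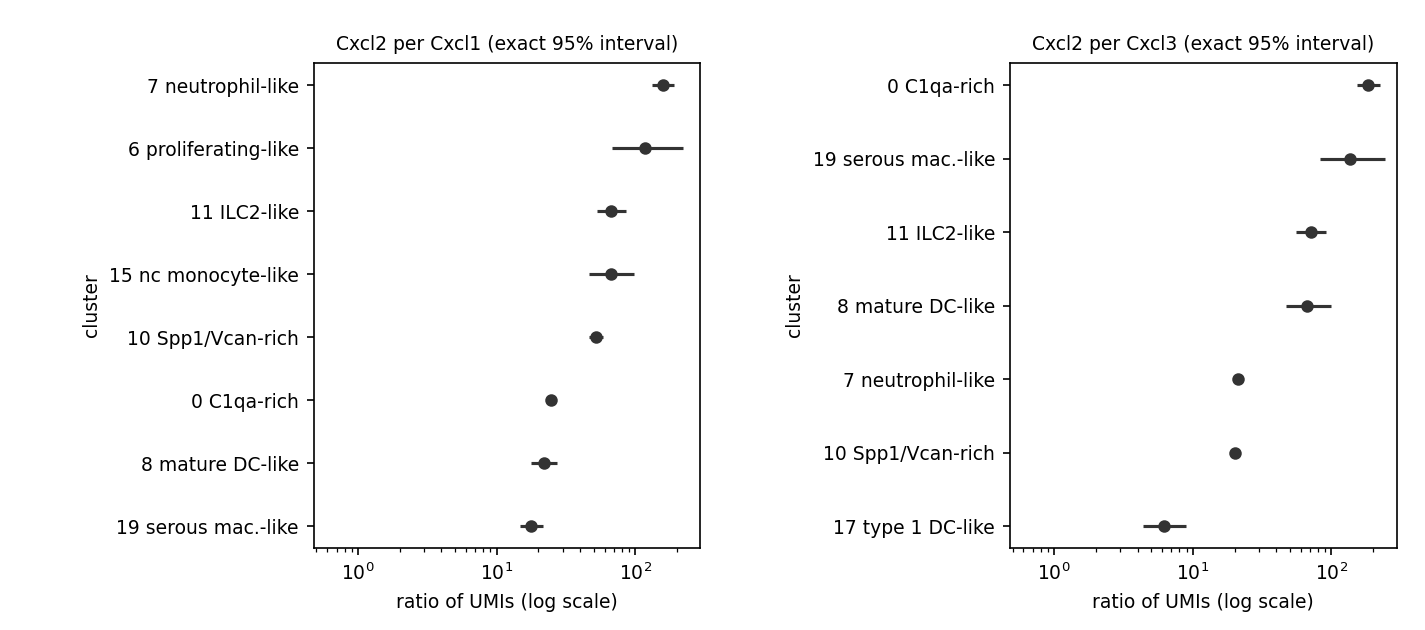
Cxcl2 UMIs per Cxcl1 UMI (left) and per Cxcl3 UMI (right), on log axes with exact 95% intervals, in the clusters with at least 10 UMIs of the denominator. Cluster 7 had the highest ratio to Cxcl1 (158) and 1 of the lowest to Cxcl3 (21.3), and cluster 0 the reverse (24.5 and 184).

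The interferon-induced pair parted by cluster. Cxcl9, a ligand that depends strongly on interferon gamma, reached 83.0 CPM (75.6 to 90.9) in the mature dendritic cell-like cluster 8, 22.6 in cluster 10 and 8.95 in the type 1 dendritic cell-like cluster 17. Clusters 8 and 10 together held 87.7% of its UMIs, and it had no UMI in 12 clusters, among them 7 and 19. Beside its mature markers, cluster 8 had the highest sum of 6 type 2 dendritic cell markers, 1337 CPM, with Cd209a and Mgl2 among its leading genes. Cxcl10, also called IP-10, was found in 19 clusters and was flatter, at 104 CPM (96.2 to 112) in cluster 10, 95.3 (73.4 to 122) in cluster 19, 86.9 in cluster 15, 77.5 in cluster 11 and 73.9 in cluster 8. The first 2 were not apart. Cxcl10 had no UMI in the plasmacytoid dendritic cell-like cluster 18, and in the plasma cell-like cluster 4 its 124 UMIs were 45.1% of all CXC ligand UMIs.

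For each Cxcl9 UMI there were 0.890 Cxcl10 UMIs (0.777 to 1.02) in cluster 8 and 0.250 (0.0608 to 0.775) in cluster 17, against 4.6 (3.82 to 5.55) in cluster 10, 12.7 in cluster 15, 14.3 in cluster 0 and 24.4 in cluster 11. The neutrophil-like cluster 7 had 65 UMIs of Cxcl10 and none of Cxcl9, and cluster 19 had 64 and none. Cxcl10 has an exon that overlaps Art3 on the other strand in GENCODE M21, and Art3 itself had 62 UMIs in all.

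**Figure D5:**
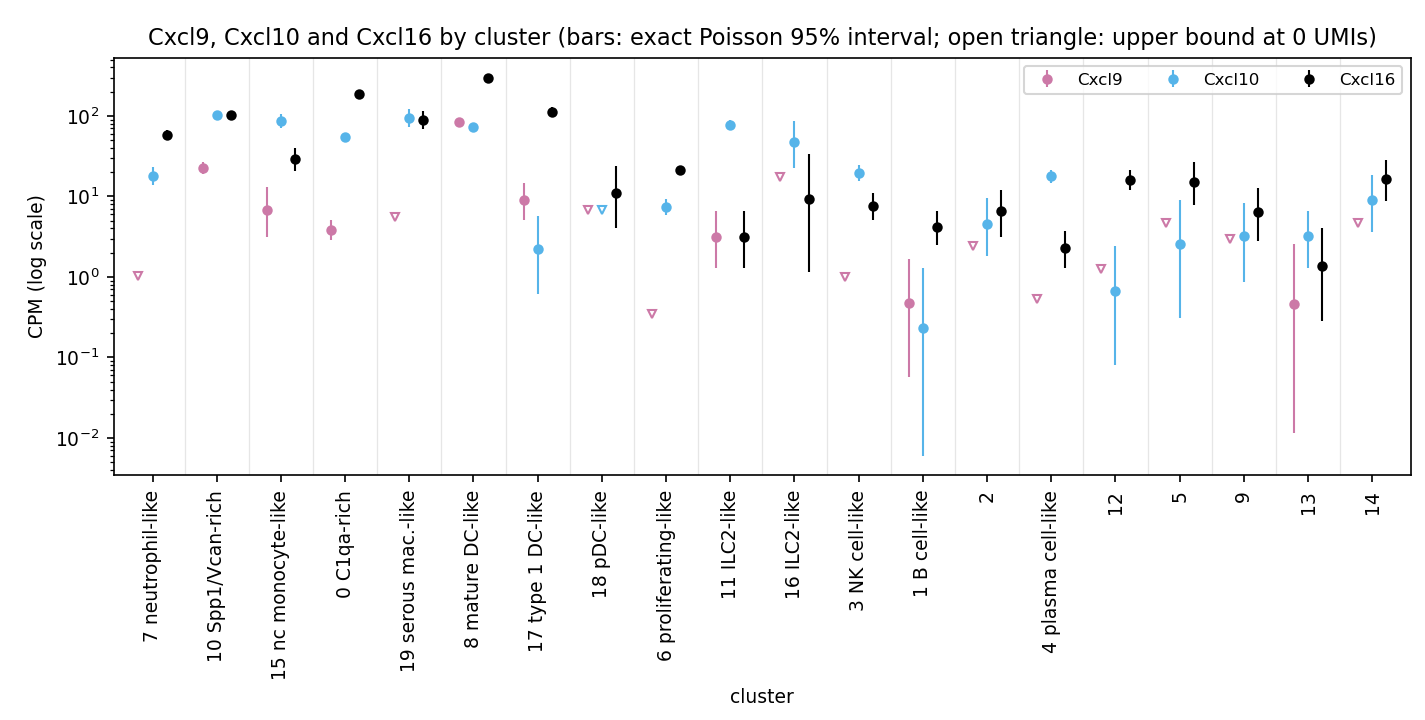
Level of Cxcl9, Cxcl10 and Cxcl16 (vertical axis, CPM on a log scale) in the 20 clusters, with exact Poisson 95% intervals and open triangles for the upper bound where no UMI was found. Cxcl9 was at the level of Cxcl10 in cluster 8 and above it in cluster 17, and below it in clusters 10, 15 and 0.

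Cxcl16, a membrane-bound ligand that also takes up oxidised lipoprotein as a scavenger receptor, was found in all 20 clusters. It stood at 294 CPM (279 to 308) in cluster 8, 188 in cluster 0 and 112 in cluster 17, and the lowest value was 1.38 CPM in cluster 13. In cluster 8 it made up 35.2% of the CXC ligand UMIs, beside 43.3% for Cxcl2, 9.96% for Cxcl9 and 8.86% for Cxcl10. It did not follow the complement gene C1qa, with 5.85 Cxcl16 UMIs per C1qa UMI in cluster 8, 2.03 in cluster 17, 0.0954 in cluster 0 and 0.0432 in cluster 19. Zmynd15, whose exons overlap Cxcl16 on the other strand in GENCODE M21, had 1162 UMIs in all and was likewise highest in cluster 8, at 114 CPM. The sources used here do not say how the counting treated strand, so reads of the 2 genes may not be fully separated.

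Cxcl13, the B cell attractant of follicles and body cavities, had 499 of its 621 UMIs in cluster 19, at 743 CPM (679 to 811). Cluster 0 followed with 109 UMIs at 8.39 CPM, and cluster 7 with 9 UMIs at 2.49 CPM. No UMI was found in 14 clusters. Cluster 19 carried all 7 serous cavity macrophage markers, with a sum of 8018 CPM against 80.2 CPM in cluster 0. Cxcl13 UMIs numbered 0.257 for each UMI of Prg4, a marker of that list, in cluster 19, 0.478 (0.377 to 0.603) in cluster 0 and 0.0682 (0.0305 to 0.133) in cluster 7. The 27 cells behind the value in cluster 19 limit how far it speaks for such cells.

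Cxcl12 and Cxcl14, ligands known mainly from stromal cells, were scarce. Cxcl14 reached 10.4 CPM (8.72 to 12.3) in cluster 0, 8.51 (6.37 to 11.1) in cluster 10 and 5.96 in cluster 19, none of them apart. Cxcl12 stood at 4.47 CPM from 3 UMIs (0.921 to 13.1) in cluster 19, 4.39 (3.32 to 5.69) from 57 UMIs in cluster 0 and 2.21 in cluster 7, and had no UMI in 11 clusters. Cluster 0 also held markers of smooth muscle cells and fibroblasts, but was not highest in those of endothelial cells. Its 6 smooth muscle markers summed to 471 CPM against at most 34.8 elsewhere, and its 6 fibroblast markers to 133 CPM against at most 51.8. Its 6 endothelial markers summed to 52.2 CPM, against 184 in cluster 18. Cxcl14 UMIs were 0.0409 times those of the smooth muscle gene Acta2 in cluster 0 and 1.0 times (0.670 to 1.49) in cluster 10. For the fibroblast gene Col1a1 the values were 0.833 and 53.0 (9.11 to 2132), with 1 Col1a1 UMI in cluster 10. Cxcl12 did not show this difference, at 0.0173 times Acta2 in cluster 0 and 0.0189 (0.000469 to 0.110) in cluster 10, from 1 Cxcl12 UMI. The part of wall cells in either ligand was not tested.

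The receptors had a distribution of their own. Cxcr2, the receptor of the ELR ligands, was at 360 CPM (341 to 380) in cluster 7, 40.2 in cluster 19 and 35.2 in cluster 10. By CPM the cluster highest in Cxcl2 and Cxcl3 was thus also highest in their receptor. With UMIs per cell Cxcl2 was highest in cluster 19. Cxcl3 was then highest in cluster 10, at 226 UMIs per 100 cells beside 218 in cluster 7, which are not called apart. Cxcr1 reached 13.6 CPM in cluster 7. Cxcr3, the receptor of Cxcl9 and Cxcl10, stood highest in clusters 18 (81.1 CPM) and 17 (73.8 CPM) and then, at 41.1 CPM, in the NK cell-like cluster 3, which also held the highest Ifng, at 344 CPM. Cxcr4 was found at 94.5 CPM or more in every cluster, and peaked in clusters 2 (690 CPM), 15 (469) and 7 (448). Cxcr5, the receptor of Cxcl13, was highest in 3 clusters deposited as B cells, with 221 CPM in cluster 2, then 102 in 4 and 72.5 in 1. Cxcr6, the receptor of Cxcl16, was at 828 CPM in cluster 16 and 399 in cluster 11, which had 9.41 and 3.17 CPM of Cxcl16. The scavenging receptor Ackr3 reached 26.8 CPM in cluster 19 and had 93 UMIs in all, while Ackr2 had 36, Ackr1 had 3 and Ackr4 had 2. Of the 7 receptors with at least 50 UMIs, 5 had a ratio of at least 10, as did 10.5% of all tested genes.

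Of the other CXC ligands, Pf4, platelet factor 4, gave 7936 UMIs and reached 2636 CPM in cluster 19 and 384 CPM in cluster 0. Ppbp had 17 UMIs, Cxcl5 had 3, Cxcl17 had 1 and Cxcl15 had none, and Cxcl11 was not among the counted genes. Among 11 genes that cut or shed these ligands, 7 reached the ratio of 10, against 10.5% of all tested genes. They included Mmp8 (98.6) and Mmp9 (60.2), neutrophil metalloproteinases with 407 and 535 CPM in cluster 7. The sheddase Adam10, which frees Cxcl16 from the membrane, gave 4091 UMIs with a ratio of 2.77, and Dpp4, a protease that trims several CXC ligands, gave 3198 with a ratio of 2.84.

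Among 17 tested genes that induce the ELR ligands, are induced with them or control the decay of their mRNA, 3 reached the ratio of 10 (10.5% of all tested genes did), and 8 had their highest level in the ILC2-like clusters 11 and 16, where 13.7% of all tested genes did. Nfkbia, the NF-kB inhibitor that NF-kB itself induces, was at 3543 CPM (3465 to 3622) in cluster 11, 1619 in cluster 16 and 1462 in cluster 7. Il1b was highest in cluster 7, at 3659 CPM. The largest ratio was that of Il17a, 337, with 53.1 CPM in cluster 11, and the next that of the chemokine Ccl4, 12.8, with 4324 CPM in cluster 3.

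Of 17 tested genes of the interferon axis, 1 reached the ratio of 10, where 10.5% of all tested genes did. It was Ifng, with 145, and the next was Rsad2, an interferon-induced antiviral gene, with 8.36. Rsad2 stood at 139 CPM in cluster 7 and 81.1 in cluster 10. Ifngr1, a subunit of the interferon gamma receptor, gave the most UMIs of the list, 26070, and had a ratio of 2.26. In the 8 tested genes of the Cxcl13 axis, 2 reached the ratio of 10, against 10.5% of all tested genes. These were Il10 with 13.5, at 64.0 CPM in cluster 15, and Cd5 with 10.1, at 209 CPM in cluster 5. The most abundant were the lymphotoxin gene Ltb, with 18280 UMIs, and Spn, with 3994.

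The genes most like each ligand over the 20 clusters were read by Pearson's r of log2(CPM + 1) among 8939 genes with at least 500 UMIs. All points share the same 2 libraries and differ in depth, so r is a description. For Cxcl2 they were Ccrl2 (0.95), an atypical chemoattractant receptor, Lilr4b (0.933) and Cpd (0.913). For Cxcl1 they were Ecm1 (0.877), Pygl (0.868) and Cxcl2 itself (0.865), and for Cxcl3 Adam8 (0.914), Glrx (0.897) and Dusp1 (0.851). Cxcl13 came nearest to Alox15 (0.973), Prg4 (0.958) and C4b (0.906), where Spearman's rho over the same clusters was 0.551, 0.434 and 0.573. Cxcl16 came nearest to Cttnbp2nl (0.960), Tgfbi (0.94) and Dab2 (0.937), Cxcl10 to Ggh (0.85), S100a4 (0.833) and Camk1 (0.831), and Cxcl9 to Snx1 (0.851), Spint1 (0.769) and Nmt1 (0.759). By Spearman's rho, 8 of these 21 genes stayed among the 3 nearest to their ligand. Among the ligands themselves, r was 0.865 between Cxcl1 and Cxcl2, 0.816 between Cxcl2 and Cxcl3 and 0.487 between Cxcl9 and Cxcl10.

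The treatments could be set side by side only through how the cells of each library were spread over the clusters. Weighting the pooled UMIs per cell of each cluster by those shares gave 12 Cxcl2 UMIs per cell for saline and 7.58 for nt-LNA, a ratio of 0.630. It was 0.458 for Cxcl3, 0.563 for Cxcl9, 0.711 for Cxcl10, 0.716 for Cxcl16, 0.735 for Cxcl14, 0.771 for Cxcl1, 0.888 for Cxcl12 and 1.92 for Cxcl13. The value was below 1 for 8 of 9 ligands and for 83.3% of all genes with at least 50 UMIs, whose median was 0.915. This arithmetic assumes the same level in a cluster under both treatments and measures no level of a ligand in either library. The Cxcl13 value rests on cluster 19 and was 0.862 without it, and that of Cxcl12 was 1.03 without the low-depth clusters 2, 5, 14 and 16.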

How the data were processed

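Aortic CD45+/CD3- cells were profiled by 10x 3' single-cell RNA sequencing, 1 library per treatment. The submitters' processing notes name Cell Ranger 2.1.1, mm9 and Seurat. Cell filters, doublet removal and strand setting: not given in the sources used here. Deposited counts are whole UMIs per gene and cluster, summed over both libraries. The authors' table of cells and its summary of cell counts gave the cells per library and cluster, with no difference between their tallies (0). A second table scaled by upper quartile was not used.

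CPM is the count over the total of its cluster. Intervals are exact Poisson for CPM and exact Clopper-Pearson for shares and ratios of UMIs, at 95%, and cover counting error only. A reference of 0 counts was set to a floor of 3 counts. Ratios were compared over the 12780 genes with at least 50 UMIs, and likeness over genes with at least 500, with a pseudocount of 1 CPM. Clusters were named where at least 3 markers of 1 type were among the 50 genes with the largest ratio and no other type had as many. Cluster 0 met this for smooth muscle but was left unnamed, because its high C1qa and its deposited name, Macrophages, go against it. Clusters were made from the same values, so their genes are described and not tested.

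The ligands, gene lists and markers were chosen with earlier results of these data known. By the rule for named genes, each ligand is given with its 3 highest clusters and its lowest, each of 7 ligands with the 3 genes nearest to it, and each list with its 2 most abundant members and its 2 largest ratios. All receptors are named. One gene that the rule would name is not reported here. Genes named beyond the rule, such as S100a8, Lyz2, C1qa and Acta2, are markers or context. Promoters and shared 50-base stretches come from RefSeq (GRCm38.p6) and GENCODE M21, matched by symbol, and their coordinates do not apply to mm9. Alternatives changed the scaling, the reference, the thresholds and the clusters included. The tools were scipy 1.17.1, pandas 2.3.3, numpy 2.4.6 and matplotlib 3.10.9 under Python 3.11.15, and calculations were tested on simulated counts.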

Additional observations from a re-analysis of the deposited data

How the results depend on the processing

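The highest cluster of the 9 ligands was the same for 9 with ribosomal and mitochondrial genes left out of the total. With upper-quartile scaling it was the same for 8, as Cxcl10 moved to cluster 19. Leaving out clusters 2, 5, 14 and 16 could not move it, because no ligand was highest there. Leaving out cluster 19 had to move Cxcl1, Cxcl12 and Cxcl13, which were highest there, and could move no other. With UMIs per cell the highest cluster was the same for 5, as Cxcl2, Cxcl10 and Cxcl14 moved to cluster 19 and Cxcl3 to cluster 10. No interval was computed per cell. Cxcl3 had 226 UMIs per 100 cells in cluster 10 and 218 in cluster 7, and Cxcl14 had 14.8 in both clusters 19 and 10. The median ratio over the ligands, that of Cxcl12, was 8.28. It was 103.6 against the median of the other clusters and 5.29 among the clusters deposited as Macrophages alone. At a ratio of 10 there were 4 ligands, 9 with the median as reference (20.3% of all genes) and 3 with the other clusters pooled (9.91%), where Cxcl1 had a ratio of 7.76. There were 8 at a ratio of 5 (26.1% of genes) and 2 at a ratio of 20 (4.33%). Of the 21 nearest genes, 8 were kept by Spearman's rho and 13 with a pseudocount of 5 CPM. The median share of UMIs in the leading cluster was 53.3%, and 26.3% as a share of summed CPM. The median ratio of weighted UMIs per cell, nt-LNA over saline, was 0.716, with 0.834 without clusters 2, 5, 14 and 16 and 0.590 without each ligand's leading cluster. It turned to 1.03 for Cxcl12 without clusters 2, 5, 14 and 16, and to 0.862 for Cxcl13 without its leading cluster. The cause of these moves was not tested. Few UMIs limit Cxcl12, Cxcl14 and every value in cluster 16, and few cells (27) those in cluster 19. No paired analysis was possible because each treatment has 1 library and the labels carry no replicate numbers.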
